A study of Homo sapiens with 18 samples.

Results

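The genes followed here were 10 members of the epidermal growth factor (EGF) receptor system: the receptors EGFR, ERBB2 and ERBB3, the related growth factor receptor MET, the EGFR ligands AREG, EREG, TGFA, HBEGF and BTC, and the inhibitor ERRFI1. They were picked by symbol, and all 10 were listed in each of the 3 tables, out of 26612 gene symbols in the series. Their messenger RNA was measured by sequencing in RKO and COLO 201, which are colon cancer lines, and in H1975, a lung cancer line known to carry mutant EGFR. All cells of the 3 lines carried the inducible hairpin tet-MUC1shRNA against MUC1, a transmembrane mucin, together with puromycin resistance. The groups were cells given doxycycline at 500 ng/ml, which switches the hairpin on, and cells given 0.1% DMSO as vehicle, with 3 columns of each per line and 10% serum in the medium. In all 3 lines the columns headed DOX without the word plus were read as vehicle by inference, so every direction rests on that reading.

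The ERBB receptors are tyrosine kinases of the cell surface that pair up when a ligand binds, and signal through the RAS to ERK and the PI3K to AKT pathways. EGFR ligands are made as membrane-bound precursors and released by proteases of the ADAM family. ERBB2 binds no known ligand and acts as the preferred partner of the other receptors, ERBB3 has little kinase activity of its own, and MET is the receptor of hepatocyte growth factor. In epithelial cancers of colon and lung, EGFR and MET are drug targets, and ERRFI1 (MIG6) is a feedback inhibitor that binds the EGFR kinase domain.

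Values are TPM, transcript abundances that are corrected for gene length and add up to 1000000 in each column. Changes are doxycycline minus vehicle on the log2(TPM + 1) scale, with the standard error and the Benjamini-Hochberg adjusted p from limma over all genes tested in a line, and a gene is said to rise or fall where that p was under 0.05. The columns came from triplicate cultures, so a p measures the spread between these columns, which may be technical. In bulk RNA, fewer cells of a kind and less RNA per cell cannot be told apart. No control hairpin with doxycycline was analysed here, so effects of doxycycline and of the hairpin cannot be told apart either. The arms of MUC1, the target of the hairpin, did not overlap in any line, with 1.78 ± 0.250 TPM with doxycycline against 13.9 ± 0.940 TPM with vehicle in COLO 201 and 8.01 ± 1.35 TPM with doxycycline against 97.5 ± 9.98 TPM with vehicle in H1975 (SD, n = 3 each). In RKO it stood at 0.105 to 0.204 TPM with doxycycline, against 15.2, 1.24 and 1.03 TPM with vehicle.

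Vehicle column 1 of RKO stood apart from the other 5 RKO columns. It held 361 TPM of VIM and 111 TPM of CAV1, genes abundant in mesenchymal cells, against at most 2.46 and 5.69 TPM in any other RKO column. The sum of the 11 fibroblast and endothelial markers was 2.50 to 3.80 TPM in the RKO doxycycline columns, against 655, 8.17 and 7.12 TPM in vehicle columns 1 to 3, with PDGFRB, PECAM1, CDH5 and VWF all under 0.1 TPM in the line. Of the same list, vehicle column 1 held COL1A1 at 54.6, COL1A2 at 84.8, COL3A1 at 41.2, DCN at 0.994 and LUM at 1.19 TPM. None of these 5 genes was above 0.00856 TPM in any other RKO column. Small noncoding RNA genes took 71.4% to 79.0% of the RKO TPM with doxycycline and 68.0% to 72.2% with vehicle, and the median change of all genes tested in RKO was -0.26. RKO results are therefore also given without vehicle column 1 and with the columns rescaled by their median ratio, which puts that median at 0.00. The same rescaling moved the median of all genes in COLO 201 to -0.01, against 0.12 as deposited. Mitochondrial genes took 16.9% to 18.6% of TPM with doxycycline and 20.1% to 23.0% with vehicle in COLO 201, and 16.1% to 17.4% with doxycycline and 17.4% to 22.5% with vehicle in H1975, and were at 0 in RKO; apart from the alternatives in scaling, the part of this shift was not tested.

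The promoters of the 5 ligand genes are shown because AREG, EREG, TGFA and HBEGF fell in COLO 201 while BTC did not pass there, and BTC fell in H1975 where HBEGF and AREG rose. Sequences are from RefSeq (GRCh38.p14), on the strand of the gene, from 250 bases before to 50 bases after the start. AREG is at chr4:74444886-74445185 (plus strand), EREG at chr4:74364895-74365194 (plus), TGFA at chr2:70553777-70554076 (minus), HBEGF at chr5:140346554-140346853 (minus) and BTC at chr4:74794474-74794773 (minus). Capitals mark matches, on either strand, to the cyclic AMP response element TGACGTCA, the AP-1 site TGANTCA, the GC box GGGCGG, the E-box CACGTG and the TATA box TATAAA.
AREG: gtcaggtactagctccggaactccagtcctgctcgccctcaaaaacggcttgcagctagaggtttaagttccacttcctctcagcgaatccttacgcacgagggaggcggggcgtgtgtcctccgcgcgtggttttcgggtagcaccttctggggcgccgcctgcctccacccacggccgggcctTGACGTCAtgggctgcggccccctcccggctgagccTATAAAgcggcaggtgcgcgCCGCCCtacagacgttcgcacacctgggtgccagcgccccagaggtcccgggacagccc
EREG: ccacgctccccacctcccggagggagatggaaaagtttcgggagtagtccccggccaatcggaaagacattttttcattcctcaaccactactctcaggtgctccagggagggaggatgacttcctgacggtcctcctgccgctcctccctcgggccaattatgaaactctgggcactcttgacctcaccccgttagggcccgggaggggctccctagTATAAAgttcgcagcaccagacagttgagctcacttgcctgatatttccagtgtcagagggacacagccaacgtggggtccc
TGFA: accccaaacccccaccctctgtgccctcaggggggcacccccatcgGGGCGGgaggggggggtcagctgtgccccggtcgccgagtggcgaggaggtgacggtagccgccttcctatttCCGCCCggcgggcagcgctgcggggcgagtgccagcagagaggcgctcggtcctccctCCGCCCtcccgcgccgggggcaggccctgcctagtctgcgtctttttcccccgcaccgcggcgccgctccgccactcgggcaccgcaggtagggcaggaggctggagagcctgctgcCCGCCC
HBEGF: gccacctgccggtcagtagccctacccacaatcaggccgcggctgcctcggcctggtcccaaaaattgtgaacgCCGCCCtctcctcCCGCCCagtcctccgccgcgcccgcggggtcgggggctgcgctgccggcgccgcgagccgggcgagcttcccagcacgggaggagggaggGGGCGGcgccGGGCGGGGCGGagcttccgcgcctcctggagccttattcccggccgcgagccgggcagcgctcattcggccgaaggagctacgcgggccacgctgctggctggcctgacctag
BTC: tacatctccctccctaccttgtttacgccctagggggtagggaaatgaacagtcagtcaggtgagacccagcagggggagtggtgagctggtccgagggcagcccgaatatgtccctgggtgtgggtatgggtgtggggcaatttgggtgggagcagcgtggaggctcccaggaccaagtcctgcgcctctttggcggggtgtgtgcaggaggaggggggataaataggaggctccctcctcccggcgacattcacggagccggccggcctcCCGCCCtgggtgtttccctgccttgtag
AREG was the only one of the 5 windows shown with TGACGTCA, 65 bases before the start, a word found in 1.85% of the 35116 promoters of the table. AREG and EREG each held TATAAA, 29 and 32 bases before the start, which is found in 11.5% of promoters. GGGCGG, found in 45.0% of promoters, occurred 5 times in HBEGF, 4 times in TGFA and once each in AREG and BTC, and 2 of the HBEGF copies share 1 base. The table holds a second TGFA promoter, at chr2:70553397-70553696 (minus), which is not shown and held 0 matches to these 5 motifs. TGANTCA (7.71% of promoters) and CACGTG (7.26%) were in none of the 5 windows. Promoter sequences were at hand for 9 of the 10 members. A match describes these letters only.

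AREG, EREG and BTC lie in a row on chromosome 4 with EPGN, a further EGFR ligand gene. In GRCh38 with GENCODE release 29, EREG spans 74365143 to 74388751 and AREG 74445134 to 74455009, 56382 bases apart on the plus strand. BTC follows on the minus strand at 74744759 to 74794686, 289749 bases beyond AREG. The neighbours were expressed at different levels: over the 6 COLO 201 columns the mean was 121 TPM for EREG, 51.7 TPM for AREG, 2.52 TPM for BTC and 0.102 TPM for EPGN.

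The lines differed in which members they expressed. In COLO 201 vehicle cells EREG led with 137 ± 10.9 TPM (SD, n = 3), ahead of ERBB2 at 102 ± 1.85 TPM. ERBB3, AREG and ERRFI1 came next at 63.7 ± 2.25, 58.7 ± 3.46 and 58.6 ± 1.96 TPM, with overlapping columns, before MET, TGFA, EGFR, HBEGF and BTC. In H1975 vehicle cells MET led with 177 ± 11.2 TPM, followed by ERRFI1 at 156 ± 7.5 TPM and EGFR at 99.0 ± 5.21 TPM. EREG, ERBB2, ERBB3, TGFA, HBEGF, BTC and AREG followed in that order, and among these neighbours only the columns of ERBB3 and TGFA overlapped. In RKO vehicle cells MET stood at 26.2 ± 3.06, ERRFI1 at 18.9 ± 12.2, ERBB2 at 9.66 ± 2.05 and EGFR at 7.51 ± 7.55 TPM, each overlapping the next. HBEGF, the most abundant of the 5 EGFR ligands in RKO, stood at 2.21 ± 0.443 TPM.

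**Figure D1:**
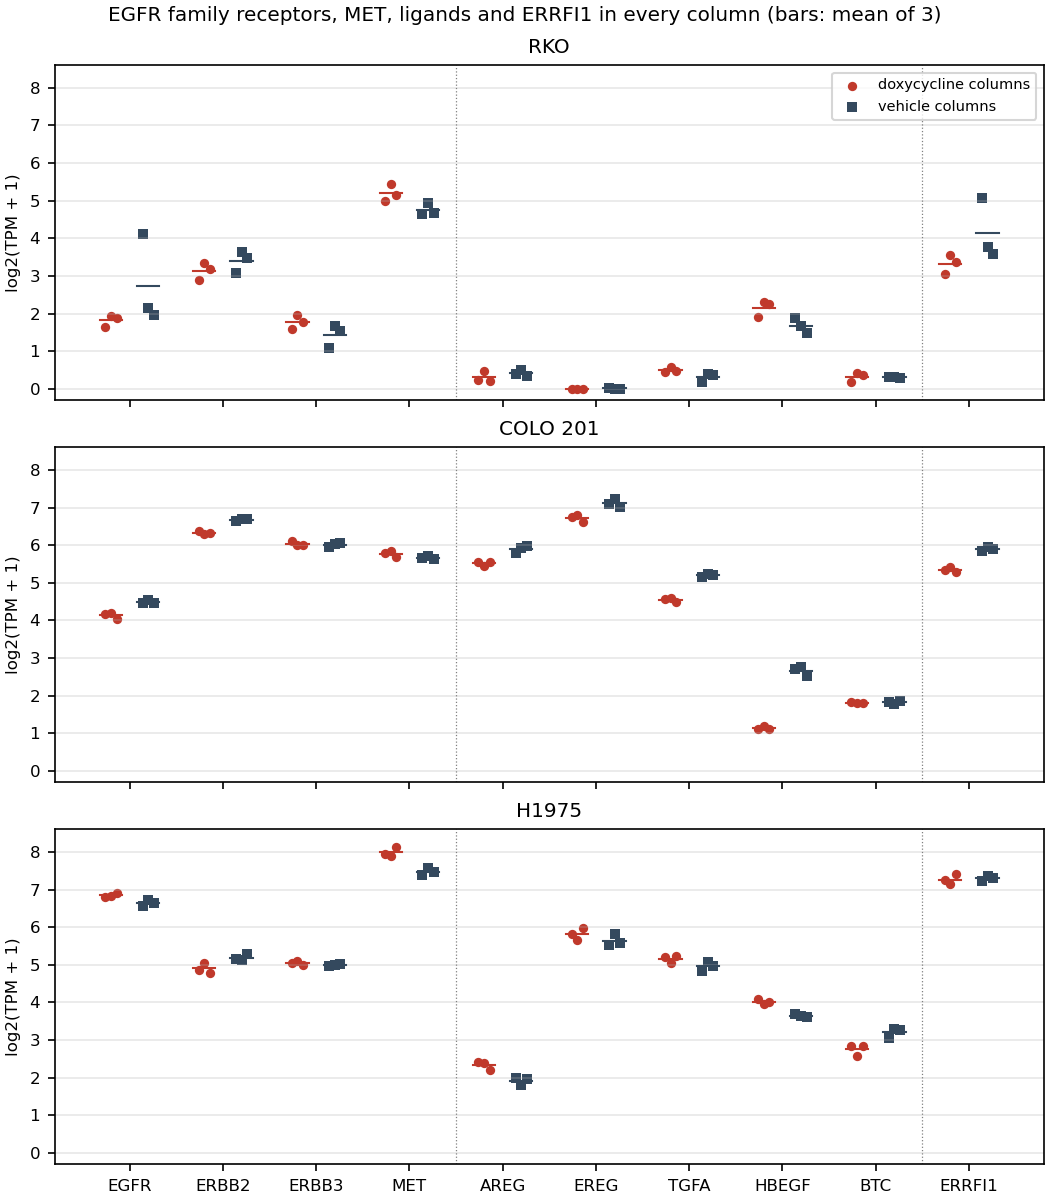
Levels of the 10 members as log2(TPM + 1) in every column of RKO, COLO 201 and H1975 (panels from top), with doxycycline columns as circles left of vehicle columns as squares and horizontal bars at the mean of 3. EGFR and MET stand at 99.0 and 177 TPM in H1975 vehicle cells (each table was normalized on its own), and the 5 ligands are low in RKO, where EGFR and ERRFI1 of vehicle column 1 lie far above the rest of their arm.

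The tables were normalized separately, so levels in different lines were set side by side only after rescaling, and were not tested. Each column was rescaled to 1000000 over 18987 genes that all 3 tables list. Mitochondrial and small noncoding RNA genes, whose share of TPM differed between the lines, were left out of these. On that shared-gene scale the vehicle mean of EGFR was 124 ± 4.67 in H1975, 27.5 ± 0.336 in COLO 201 and 26.6 ± 27.5 in RKO, where the columns were 58.4, 11.0 and 10.5. For MET it was 222 ± 11.6 in H1975, 90.7 ± 3.80 in RKO and 63.3 ± 1.45 in COLO 201. ERBB2 and ERBB3 were highest in COLO 201, at 130 ± 0.566 and 81.4 ± 1.77, against 44.3 ± 2.10 and 38.5 ± 0.520 in H1975 and 33.4 ± 5.78 and 6.03 ± 1.74 in RKO. AREG, with the largest ratio between COLO 201 and H1975, stood at 75.0 ± 3.55 in COLO 201 and 3.48 ± 0.360 in H1975. EREG was listed at 0 in 5 of the 6 RKO columns and at 0.0169 TPM in vehicle column 1.

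In COLO 201, 7 of the 10 members fell with doxycycline and none rose: EGFR, ERBB2, AREG, EREG, TGFA, HBEGF and ERRFI1. Of the 11566 genes tested in that line 15.0% fell and 45.9% rose, and the members had a median log2 change of -0.37 against 0.12 over all genes. One member, MET, was higher at an unadjusted p under 0.05. The arms did not overlap for the same 7 members, all lower, against 16.6% of all genes lower without overlap and 48.5% higher. After rescaling 8 members fell, the added one being ERBB3, and 0 rose, also at an unadjusted p under 0.05, where 29.7% of genes fell and 27.3% rose. Each of the 7 passed limma in every one of the alternatives run for it, those that left out a column included.

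Of the members that fell in COLO 201, HBEGF and TGFA had the largest changes. HBEGF, which binds both EGFR and ERBB4 and is also the diphtheria toxin receptor, stood at 1.16, 1.29 and 1.18 TPM in doxycycline columns 1 to 3, against 5.47, 5.83 and 4.72 TPM in vehicle columns 1 to 3. Every doxycycline column was far below every vehicle column, and they averaged 22.6% of vehicle (log2 change -1.52 ± 0.08, limma adjusted p = 2.0e-08). TGFA, a ligand of EGFR, stood at 22.7, 23.3 and 21.4 TPM with doxycycline, against 34.8, 36.3 and 35.7 TPM with vehicle. The arms were again apart, at 63.1% of the vehicle mean (-0.64 ± 0.05, limma adjusted p = 2.8e-07).

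AREG (amphiregulin) and its neighbour EREG (epiregulin), ligands of EGFR of which EREG also binds ERBB4, fell by like amounts in COLO 201. AREG stood at 45.6, 42.8 and 45.7 TPM with doxycycline, against 54.8, 59.9 and 61.5 TPM with vehicle (-0.39 ± 0.05, limma adjusted p = 3.3e-05). EREG stood at 106.6, 109.5 and 96.2 TPM with doxycycline, against 134.3, 149.2 and 127.9 TPM with vehicle (-0.39 ± 0.06, limma adjusted p = 1.3e-04). Both genes were lower in all 3 doxycycline columns than in any vehicle column. The ratio of EREG to AREG TPM was 2.33 ± 0.226 with doxycycline and 2.34 ± 0.226 with vehicle (SD, n = 3 each). BTC (betacellulin), the next gene on the chromosome, had overlapping arms at 2.51 ± 0.0554 TPM with doxycycline against 2.53 ± 0.109 TPM with vehicle (-0.01 ± 0.07, 95% interval -0.16 to 0.14, limma adjusted p = 0.92).

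Among the COLO 201 receptors, EGFR and ERBB2 fell and ERBB3 and MET did not pass the test. EGFR (chr7:55019021-55211628, plus strand) stood at 17.0, 17.3 and 15.5 TPM with doxycycline, against 21.2, 22.1 and 21.2 TPM with vehicle (-0.36 ± 0.05, limma adjusted p = 1.0e-04). ERBB2 (chr17:39687914-39730426, plus strand) stood at 82.3, 77.3 and 79.0 TPM with doxycycline, against 99.5, 103.1 and 102.2 TPM with vehicle (-0.35 ± 0.04, limma adjusted p = 1.1e-05). The arms of both were apart, by similar amounts, so that the ratio of EGFR to ERBB2 was 0.209 ± 0.0140 with doxycycline and 0.212 ± 0.00350 with vehicle. ERBB3 (chr12:56076799-56103505, plus strand) had overlapping arms at 64.8 ± 2.62 TPM with doxycycline against 63.7 ± 2.25 TPM with vehicle (0.03 ± 0.04, 95% interval -0.07 to 0.12, limma adjusted p = 0.64). After rescaling it was -0.11 and passed (limma adjusted p = 0.044), within a range of adjusted p over its alternatives of 0.044 to 0.96. MET (chr7:116672390-116798386, plus strand) stood at 53.7 ± 3.02 TPM with doxycycline against 49.5 ± 1.5 TPM with vehicle (0.11 ± 0.05, limma adjusted p = 0.056), and its value was -0.02 after rescaling.

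ERRFI1 (chr1:8004404-8026308, minus strand) stood at 39.2, 41.8 and 38.0 TPM in the COLO 201 doxycycline columns, against 56.5, 60.3 and 58.9 TPM with vehicle. All 3 doxycycline columns were lower, at 67.7% of the vehicle mean (-0.55 ± 0.05, limma adjusted p = 1.0e-06). The inhibitor thus fell alongside the receptor it binds in this line.

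Added up, the 5 ligands gave 175 ± 6.96 TPM in COLO 201 doxycycline cells and 239 ± 12.4 TPM in vehicle cells. The 4 receptors gave 215 ± 6.88 TPM with doxycycline and 236 ± 5.20 TPM with vehicle. The ratio of the ligand sum to the receptor sum was 0.815 ± 0.0200 with doxycycline and 1.01 ± 0.0354 with vehicle, without overlap. This is not ligand per EGFR message, since the receptor sum also holds ERBB2, which binds no known ligand, and MET, the receptor of hepatocyte growth factor. EGFR made up 7.73% of the receptor sum with doxycycline and 9.10% with vehicle. ERBB3 and MET, which did not pass the test, are part of that sum as well. The ligand sum was not set against EGFR alone. EREG made up most of the ligand sum, 59.5% with doxycycline and 57.3% with vehicle, while HBEGF took 0.691% with doxycycline and 2.23% with vehicle.

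**Figure D2:**
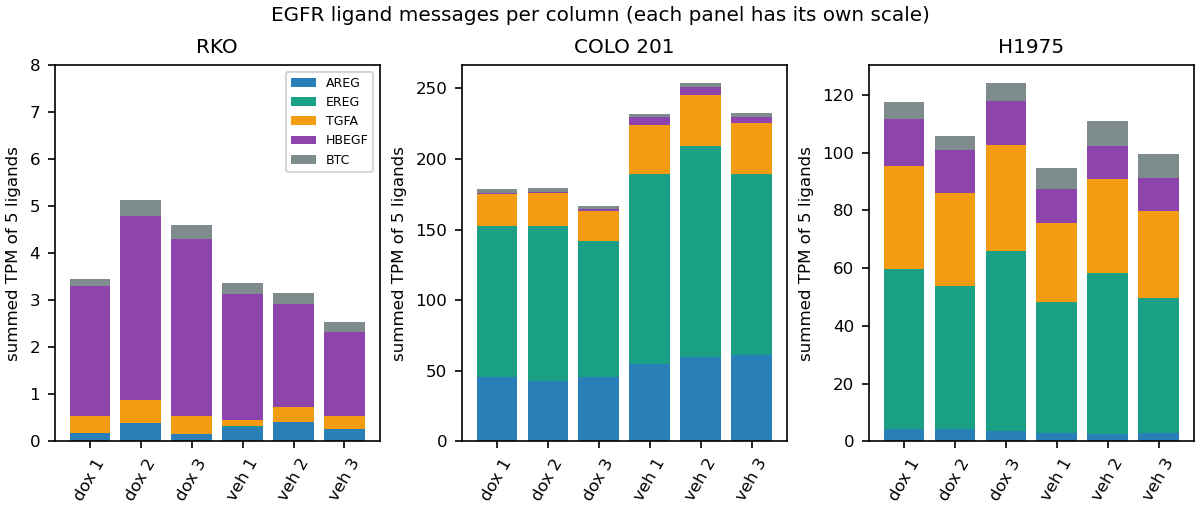
Stacked bars of the summed TPM of the 5 ligands in each column of RKO, COLO 201 and H1975, doxycycline columns left of vehicle columns, with each panel on its own linear scale from 0. COLO 201 bars are lower with doxycycline (means 175 TPM with doxycycline against 239 TPM with vehicle), H1975 bars hold all 5 ligands in either arm, and RKO bars stay under 6 TPM and are mostly HBEGF.

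In H1975, 4 members rose with doxycycline, EGFR, MET, AREG and HBEGF, and 2 fell, ERBB2 and BTC. Of the 12359 genes tested in that line 23.9% rose and 14.6% fell, and the median log2 change was 0.19 for the members against 0.06 over all genes. The arms did not overlap for these 4 higher and 2 lower members, against 30.7% and 18.4% of all genes. With 10 members, counts of 4 and 2 lie near these shares and are no result about the group.

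MET rose most among them on the log2(TPM + 1) scale, which understates the change of low genes. As a ratio of mean TPM the low AREG, at 147% of vehicle, was slightly above it. MET stood at 246, 238 and 282 TPM in doxycycline columns 1 to 3, against 167, 189 and 175 TPM in vehicle columns 1 to 3. Every doxycycline column was above every vehicle column, and the mean was 144% of the vehicle mean (0.52 ± 0.08, limma adjusted p = 1.4e-04). EGFR, whose TPM in this line add mutant and other alleles together, stood at 110.3, 111.8 and 120.2 TPM with doxycycline, against 93.8, 104.2 and 99.1 TPM with vehicle. Its arms were apart by a small gap (0.20 ± 0.07, limma adjusted p = 0.030), and it passed in 8 of 14 alternatives, with adjusted p from 0.024 to 0.11.

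ERBB2, the partner receptor, was lower in each H1975 doxycycline column, at 28.2, 32.1 and 26.6 TPM, against 34.4, 33.9 and 37.9 TPM with vehicle (-0.28 ± 0.08, limma adjusted p = 0.014). It passed in 12 of 14 alternatives, with adjusted p from 6.0e-04 to 0.079. With EGFR higher and ERBB2 lower, the ratio of EGFR to ERBB2 was 3.97 ± 0.521 with doxycycline and 2.80 ± 0.240 with vehicle. ERBB3 had overlapping arms at 31.9 ± 1.29 TPM with doxycycline against 30.8 ± 0.600 TPM with vehicle (0.05 ± 0.07, 95% interval -0.10 to 0.19, limma adjusted p = 0.60). MET took 59.3% of the summed receptor TPM with doxycycline and 51.7% with vehicle.

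Of the H1975 ligands, HBEGF stood at 16.0, 14.7 and 15.1 TPM with doxycycline, against 11.9, 11.4 and 11.2 TPM with vehicle (0.38 ± 0.07, limma adjusted p = 0.0011). AREG stood at 4.35, 4.27 and 3.61 TPM with doxycycline, against 2.96, 2.51 and 2.87 TPM with vehicle (0.42 ± 0.09, limma adjusted p = 0.0027). All doxycycline columns of both genes were above all vehicle columns. BTC, a ligand of EGFR and ERBB4, stood at 6.16, 4.96 and 6.23 TPM with doxycycline, against 7.27, 8.88 and 8.61 TPM with vehicle, and here the doxycycline columns were the lower ones (-0.45 ± 0.10, limma adjusted p = 0.0028).

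The most abundant H1975 ligands, EREG and TGFA, did not pass. EREG stood at 55.8 ± 6.36 TPM with doxycycline against 49.2 ± 5.66 TPM with vehicle (0.18 ± 0.09, limma adjusted p = 0.14) and TGFA at 34.9 ± 2.39 TPM with doxycycline against 30.1 ± 2.56 TPM with vehicle (0.21 ± 0.08, limma adjusted p = 0.054), with overlapping arms in both. ERRFI1, the second most abundant member in vehicle cells, stood at 151.3, 139.6 and 169 TPM with doxycycline, against 148.5, 163.5 and 157.1 TPM with vehicle (-0.03 ± 0.08, 95% interval -0.19 to 0.13, limma adjusted p = 0.77). The interval spans 0 for ERRFI1 while EGFR rose in the same columns. The ligand sum was 116 ± 9.27 with doxycycline and 102 ± 8.36 TPM with vehicle, and the receptor sum 430 ± 25.1 TPM with doxycycline and 342 ± 16.3 TPM with vehicle.

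**Figure D3:**
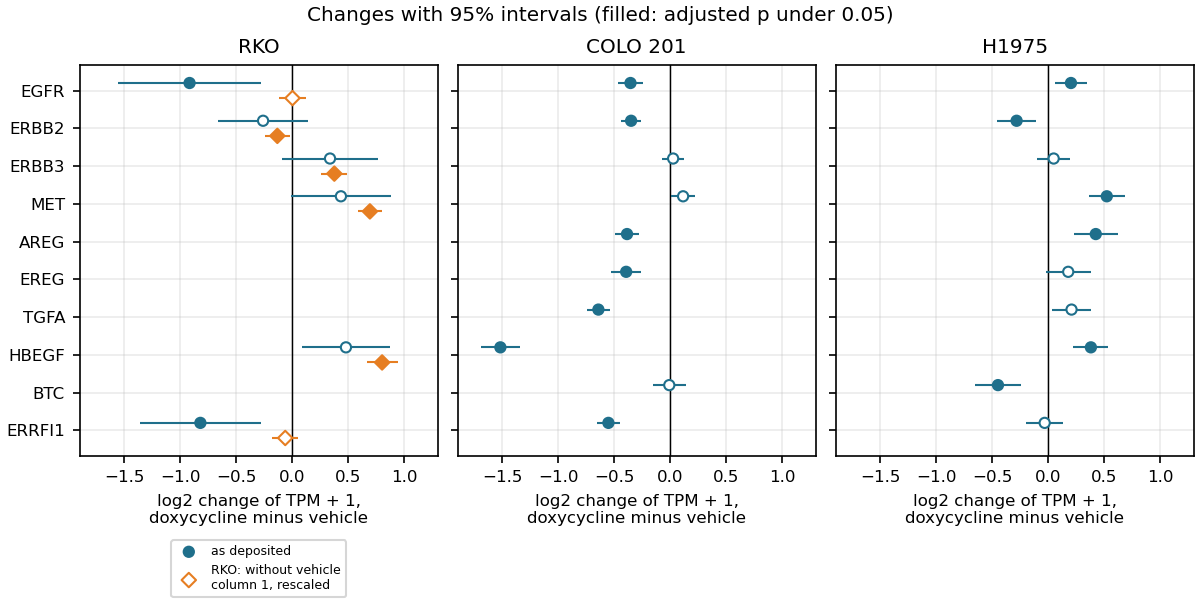
Log2 change of TPM + 1, doxycycline minus vehicle, of each member in RKO, COLO 201 and H1975, with 95% intervals from limma and filled symbols at an adjusted p under 0.05. Circles are TPM as deposited and diamonds are RKO without vehicle column 1 and rescaled, where EGFR lies at 0.00 (-0.92 as deposited). HBEGF lies left of 0 in COLO 201 (-1.52) and right of 0 in H1975 (0.38).

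In RKO, 6 members reached the minimum mean of 1 TPM that was required for a test, and AREG, EREG, TGFA and BTC did not. In limma 2 of the 6 fell, EGFR and ERRFI1, and 0 rose, with 1 higher at an unadjusted p under 0.05 (HBEGF). Of the 10551 genes tested 16.1% fell and 2.09% rose. The arms did not overlap for 2 members that were lower, EGFR and ERRFI1, and 2 that were higher, MET and HBEGF, against 32.4% and 3.90% of all genes.

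Neither RKO fall passed without vehicle column 1, nor without doxycycline column 1 or doxycycline column 2. All doxycycline columns of both genes still lay under vehicle columns 2 and 3, by a small gap. EGFR stood at 2.12, 2.84 and 2.67 TPM with doxycycline, against 16.2, 3.46 and 2.86 TPM in vehicle columns 1 to 3 (-0.92 ± 0.31, limma adjusted p = 0.040). ERRFI1 stood at 7.26, 10.8 and 9.34 TPM with doxycycline, against 32.9, 12.6 and 11.0 TPM with vehicle (-0.82 ± 0.26, limma adjusted p = 0.030). Vehicle column 1 thus held 5.14 times the mean EGFR and 2.78 times the mean ERRFI1 of vehicle columns 2 and 3, and 0.543 times their mean ERBB3. Without that column the changes were -0.23 for EGFR and -0.35 for ERRFI1 (limma adjusted p = 0.37 and 0.27), and with the columns also rescaled they were 0.00 and -0.06 (limma adjusted p = 0.98 and 0.32). Over all their alternatives the adjusted p ran from 1.9e-06 to 0.98 for EGFR and from 4.3e-04 to 0.34 for ERRFI1. The part of the mesenchymal genes of that column in these falls was not tested beyond leaving the column out.

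MET and HBEGF were higher in RKO doxycycline columns. MET stood at 30.8, 42.2 and 34.6 TPM with doxycycline, against 24.3, 29.7 and 24.6 TPM with vehicle, and the arms were narrowly apart (0.43 ± 0.22, limma adjusted p = 0.15). After rescaling its change was 0.73 and passed (limma adjusted p = 0.0013), and it was 0.69 without vehicle column 1 and rescaled (limma adjusted p = 9.5e-07). HBEGF stood at 2.78, 3.92 and 3.76 TPM with doxycycline, against 2.67, 2.19 and 1.78 TPM with vehicle, again apart (0.48 ± 0.19, limma adjusted p = 0.081). It was 0.70 after rescaling (limma adjusted p = 0.0085), 0.58 without vehicle column 1 (limma adjusted p = 0.013) and 0.80 with both (limma adjusted p = 1.9e-06). Over all alternatives the adjusted p ran from 9.5e-07 to 0.40 for MET and from 1.9e-06 to 0.36 for HBEGF, and neither value turned negative in any of them.

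ERBB3 and ERBB2 in RKO had overlapping arms, at 2.44 ± 0.427 TPM with doxycycline against 1.75 ± 0.561 TPM with vehicle and 7.86 ± 1.38 TPM with doxycycline against 9.66 ± 2.05 TPM with vehicle (limma adjusted p = 0.26 and 0.36). After rescaling, ERBB3 was 0.54 (limma adjusted p = 0.035) and ERBB2 was 0.01 (limma adjusted p = 0.97). Without vehicle column 1 and rescaled they were 0.38 and -0.13 (limma adjusted p = 1.1e-04 and 0.045). In that setting 3 of the 6 members rose, MET, HBEGF and ERBB3, and 1 fell, ERBB2, where 29.1% of all genes rose and 29.8% fell. TGFA, under the minimum for a test, stood at 0.357, 0.499 and 0.384 TPM with doxycycline, against 0.131, 0.319 and 0.281 TPM with vehicle. HBEGF made up 79.5% of the RKO ligand sum with doxycycline and 72.9% with vehicle.

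**Figure D4:**
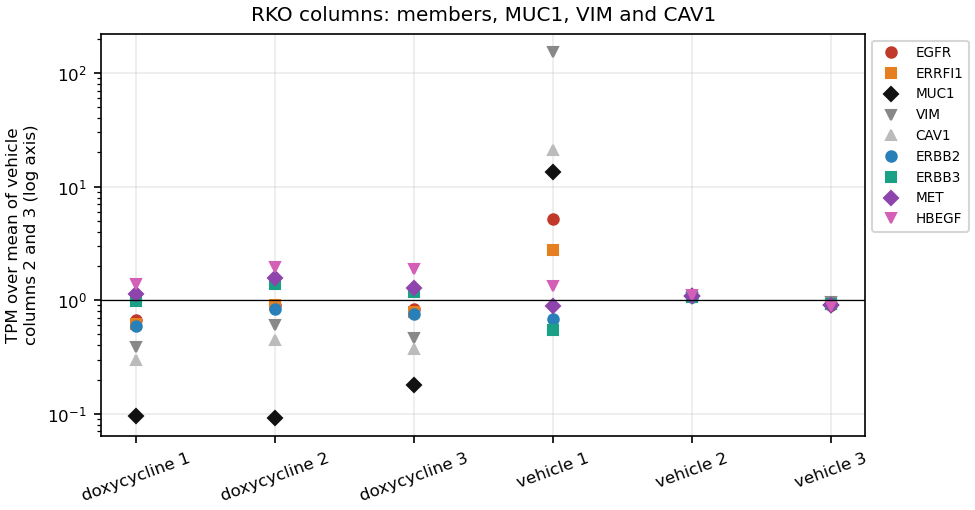
TPM in each RKO column divided by the mean of vehicle columns 2 and 3 (log axis), doxycycline columns on the left, for EGFR, ERRFI1, ERBB2, ERBB3, MET and HBEGF and for MUC1, VIM and CAV1. In vehicle column 1 EGFR reaches 5.14 and ERRFI1 2.78 beside VIM at 153, while MET and HBEGF lie above 1 in all doxycycline columns.

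Whether the lines responded differently was tested in a joint limma fit, as differences between the log2 changes. With all 3 lines, 6 members could be compared. HBEGF differed between COLO 201 and RKO (-2.00 ± 0.16, limma adjusted p = 4.0e-08) and between H1975 and COLO 201 (1.90 ± 0.16, limma adjusted p = 1.5e-07). EGFR differed between H1975 and RKO (1.12 ± 0.44, limma adjusted p = 0.048), a value of 0.44 without RKO vehicle column 1 (limma adjusted p = 0.018) and of 0.16 without it and with every line rescaled (limma adjusted p = 0.045). The call was lost after rescaling alone (0.85, limma adjusted p = 0.21), without mitochondrial and small noncoding RNA genes and with a replicate block, with adjusted p from 0.018 to 0.22 over its alternatives. That made 1 of 6 members for each pair of lines, where 48.5% of all genes differed between COLO 201 and RKO, 41.4% between H1975 and RKO and 7.20% between H1975 and COLO 201. Without RKO vehicle column 1 the members that differed were 1, 1 and 3 of 6, where 58.0%, 52.4% and 17.3% of genes did. With every line also rescaled, a setting chosen after seeing the data, they were 6, 4 and 4 of 6, where 50.6%, 47.3% and 45.8% of genes did. In that setting all 6 changes were lower in COLO 201 than in RKO, from -0.35 for ERBB2 to -2.41 for HBEGF.

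A fit of COLO 201 and H1975 alone, chosen after seeing the data, brought in all 10 members and left out the RKO columns with their wider spread. In it 8 of 10 members differed between H1975 and COLO 201, where 38.6% of all 10823 genes did. HBEGF had the widest difference (1.90 ± 0.10, limma adjusted p = 1.0e-09), with TGFA at 0.85 ± 0.09 (limma adjusted p = 3.5e-06) and AREG at 0.81 ± 0.10 (limma adjusted p = 1.4e-05). EREG (0.57 ± 0.12), EGFR (0.56 ± 0.08), ERRFI1 (0.52 ± 0.09) and MET (0.41 ± 0.09) were also positive, with limma adjusted p of 0.0027 at most. BTC ran the other way at -0.44 ± 0.12 (limma adjusted p = 0.0089). ERBB2 and ERBB3 did not pass, at 0.07 ± 0.09 and 0.02 ± 0.07 (limma adjusted p = 0.59 and 0.82). ERBB2 fell in both lines. EGFR, AREG and HBEGF fell in COLO 201 and rose in H1975.

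**Figure D5:**
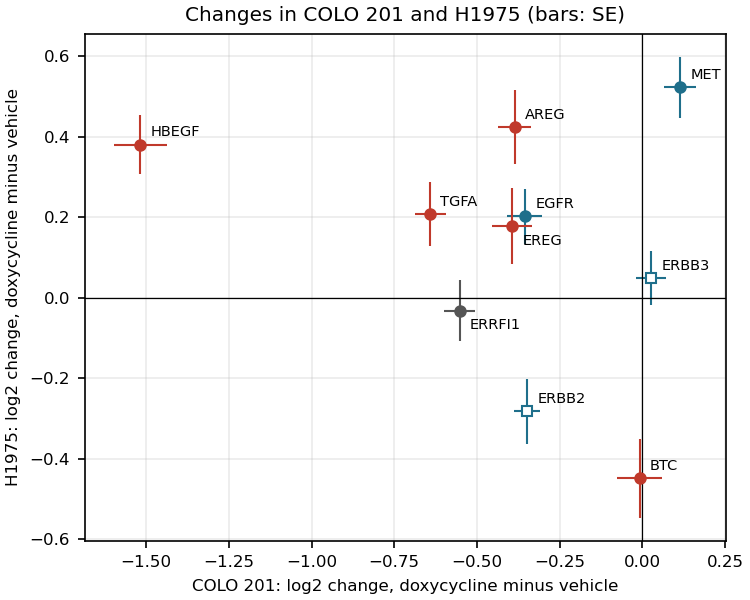
Log2 change with doxycycline in COLO 201 (x axis) and in H1975 (y axis) for the 10 members, with standard errors, receptors in blue, ligands in red and ERRFI1 in grey; filled circles mark a difference between the lines at a limma adjusted p under 0.05. HBEGF lies at -1.52 and 0.38, and the open squares are ERBB2 and ERBB3.

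Other genes of the pathway were followed in 6 lists, whose counts are to be read against the shares of all genes tested. These were 45.9% higher and 15.0% lower in COLO 201 (27.3% and 29.7% after rescaling), 23.9% and 14.6% in H1975 (21.2% and 18.5%) and 2.09% and 16.1% in RKO (13.8% and 14.0%). Of 18 genes transcribed downstream of ERK or feeding back on it, 15 rose in H1975 and 0 fell, where 2 were lower at an unadjusted p under 0.05, with a median of 0.47 against 0.06 over all genes. After rescaling 15 rose and 2 fell. They include DUSP5, a nuclear ERK phosphatase, at 155 ± 2.32 TPM with doxycycline against 73.0 ± 6.43 TPM with vehicle (1.08 ± 0.07, limma adjusted p = 1.3e-07), and DUSP6, a cytoplasmic one, at 57.2 ± 2.66 TPM with doxycycline against 31.8 ± 2.57 TPM with vehicle (0.83 ± 0.08, limma adjusted p = 2.3e-06). SPRY4, a feedback inhibitor of receptor signalling, was at 24.7 ± 0.573 TPM with doxycycline against 13.8 ± 0.358 TPM with vehicle (0.80 ± 0.07, limma adjusted p = 1.4e-06), and PHLDA1 at 195 ± 17.3 TPM with doxycycline against 109 ± 5.72 TPM with vehicle. In COLO 201, where 7 members fell, 6 of the 18 rose and 6 fell (5 and 8 after rescaling), with ETV1 (1.06), ETV5 (0.54) and MYC (0.50) higher and cyclin D1, CCND1 (-0.58), lower. In RKO 3 rose, DUSP5 (1.01), IER3 (0.88) and MYC (0.67), and 1 fell, ETV1 (-0.79), which after rescaling became 6 and 1. Without vehicle column 1 and rescaled, 9 of 16 rose in RKO and 0 fell, also at an unadjusted p under 0.05.

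Of the genes that process and release the ligands, 7 of 13 rose and 3 fell in COLO 201 (5 and 5 after rescaling), near the shares of all genes. Higher there were CD9, a tetraspanin that associates with the HBEGF precursor, at 525 ± 15.4 TPM with doxycycline against 370 ± 3.19 TPM with vehicle (0.50 ± 0.04, limma adjusted p = 3.9e-07), the membrane protease ST14 (0.56 ± 0.04), ADAM15 (0.40 ± 0.04) and NRDC (0.37 ± 0.05). The 3 that fell as deposited were RHBDF1 (-0.30 ± 0.06), ADAM10 (-0.20 ± 0.05) and FURIN (-0.18 ± 0.04). In H1975 2 of 14 rose, SPINT2 (0.22 ± 0.07) and NRDC (0.22 ± 0.07), and 0 fell, also at an unadjusted p under 0.05. In RKO SPINT2, an inhibitor of membrane serine proteases, was the 1 of 13 that rose (0.94 ± 0.20, limma adjusted p = 0.0017), and 0 fell, with 2 lower at an unadjusted p under 0.05.

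Of adaptors and effectors downstream of the receptors, 7 were called higher and 4 lower of 22 in COLO 201 (1 and 10 after rescaling), 6 and 5 of 23 in H1975 (5 and 7) and 0 and 2 of 20 in RKO (3 and 1), where 1 was higher at an unadjusted p under 0.05. GRB10, an adaptor that binds active receptors, fell in COLO 201 (-0.86 ± 0.05) and GAB2, a docking protein, rose in H1975 (0.52 ± 0.08). PLCG1, the phospholipase recruited by EGFR, fell in H1975 (-0.68 ± 0.07) and RKO (-0.77 ± 0.20). Of genes of receptor turnover and inhibition, 10 rose and 6 fell of 26 in COLO 201 (3 and 11 after rescaling), 3 and 1 of 28 in H1975 (3 and 2) and 1 and 4 of 26 in RKO (6 and 3 after rescaling). LRIG1, which promotes the degradation of EGFR, fell in COLO 201 (-0.74 ± 0.06), CBL, a ubiquitin ligase of EGFR, rose in H1975 (0.20 ± 0.07) and its relative CBLB rose in RKO (0.84 ± 0.20). CBL and CBLB also rose in COLO 201 as deposited (0.25 ± 0.06 and 0.19 ± 0.07). PTPRJ of the same list fell in H1975 (-0.39 ± 0.07), with the smallest adjusted p of the list there, and in RKO (-0.84 ± 0.23).

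Among other ERBB and MET family genes few were expressed: 2 of 10 were tested in RKO, 1 in COLO 201 and 4 in H1975. Limma called 1 of them, EGF itself, which fell in H1975 to 0.728 ± 0.184 TPM with doxycycline, against 1.87 ± 0.0790 TPM with vehicle (-0.74 ± 0.10, limma adjusted p = 7.6e-05). In RKO and COLO 201 none was called, and 0 had an unadjusted p under 0.05. HGF, the ligand of MET, was tested in RKO. It stood at 14.9 ± 3.00 TPM with doxycycline against 20.1 ± 7.12 TPM with vehicle (-0.36 ± 0.24, limma adjusted p = 0.29). Of other receptor tyrosine kinases 4 rose and 8 fell of 15 in COLO 201 (2 and 8 after rescaling), 2 and 5 of 15 in H1975 (2 and 7), and 0 and 1 of 13 in RKO (2 and 2), where 0 were higher at an unadjusted p under 0.05. AXL fell in COLO 201 (-1.12 ± 0.07) and RKO (-0.90 ± 0.23), and KIT fell in COLO 201 (-0.70 ± 0.05). In H1975 the 2 that rose were MERTK (0.79 ± 0.07) and EPHA2 (0.73 ± 0.07). Those that fell there include ROS1 (-0.74 ± 0.09) and PTK7 (-0.55 ± 0.08). In COLO 201 as deposited MERTK (0.33 ± 0.10) and PTK7 (0.28 ± 0.05) rose, while EPHA2 fell (-0.35 ± 0.04). Apart from HGF in RKO, values named in these lists had limma adjusted p of 0.043 at most.

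The RKO counts of these lists were also taken without vehicle column 1 and with the columns rescaled, where 29.1% of all genes rose and 29.8% fell. Then 9 rose and 1 fell of 12 genes of ligand release, 8 rose and 4 fell of 20 adaptors and effectors, and 10 rose and 6 fell of 25 genes of turnover and inhibition. Of the other receptor tyrosine kinases 2 rose and 4 fell of 12, and of the other family genes 1 rose and 1 fell of 2. HGF was the family gene that fell (-0.36, limma adjusted p = 1.4e-04). The other RKO genes named above had the same direction in that setting. The log2 changes were 1.06 for DUSP5, 1.23 for IER3, 0.82 for MYC, 0.98 for SPINT2, 1.00 for CBLB, -0.57 for PLCG1 and -0.72 for AXL (limma adjusted p of 3.9e-06 at most). For PTPRJ the change was -0.28 (limma adjusted p = 9.1e-04). ETV1 was under the minimum for a test there.

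The genes whose log2 values followed each receptor most closely over the 6 columns of each line, by the mean within-line Pearson r among 9400 genes, were UACA (0.99), NCEH1 (0.97) and ALCAM (0.97) for EGFR and GRAMD4 (0.98), GSTP1 (0.97) and RXRA (0.97) for ERBB2. For ERBB3 they were RTKN (0.93), CLIP2 (0.93) and VPS37B (0.92), and for MET they were MREG (0.97), CNST (0.96) and CYLD (0.96). These columns share the arm difference and, in RKO, vehicle column 1, so the r describe likeness only.

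Markers of the labelled tissues moved beside the members in some lines. The summed epithelial markers were 7468 to 7838 TPM with doxycycline and 7661 to 7750 TPM with vehicle in COLO 201, where CDH1 alone fell to 229 ± 5.32 TPM with doxycycline, against 344 ± 10.4 TPM with vehicle (limma adjusted p = 1.4e-07). The sums were 2497 to 2753 TPM with doxycycline and 2362 to 2592 TPM with vehicle in H1975. In RKO the sum was 48.2 to 68.7 TPM with doxycycline against 28.7 to 52.4 TPM with vehicle, and CDH1 and KRT19 were under 0.1 TPM in it. The 7 colon markers summed to 140 to 143 TPM with doxycycline and 199 to 203 TPM with vehicle in COLO 201. Within that list VIL1, LGALS4 and GPA33 fell, while KRT20 rose to 20.1 ± 1.12 TPM with doxycycline, against 14.3 ± 0.794 TPM with vehicle, and CDH17 to 2.42 ± 0.118 TPM with doxycycline, against 0.414 ± 0.0794 TPM with vehicle. Of the 7, 6 were under 0.1 TPM in RKO. The 7 lung markers summed to 19.9 to 24.2 TPM with doxycycline against 30.8 to 35.5 TPM with vehicle in H1975, where SFTPA1, SFTPA2 and SFTPC were under 0.1 TPM. The leukocyte list summed to 594 to 625 TPM with doxycycline against 1218 to 1222 TPM with vehicle in COLO 201, nearly all of it LYZ, with PTPRC and CD3E under 0.1 TPM. CD14 of that list rose, to 1.44 ± 0.173 TPM with doxycycline, against 0.688 ± 0.112 TPM with vehicle (limma adjusted p = 2.6e-04). The fibroblast and endothelial list summed to 12.5 to 13.9 TPM with doxycycline against 32.5 to 35.4 TPM with vehicle in COLO 201, most of it CAV1 at 11.6 ± 0.677 TPM with doxycycline against 33.4 ± 1.49 TPM with vehicle. LUM, under the minimum for a test, went the other way. It stood at 1.11, 1.19 and 1.39 TPM with doxycycline, against 0.296, 0.284 and 0.340 TPM with vehicle. In H1975 the fibroblast and endothelial list summed to 778 to 877 TPM with doxycycline against 952 to 1070.3 TPM with vehicle, with 4 members above 1 TPM. The part of these shifts in the members' changes was not tested.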

How the data were processed

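Total RNA of triplicate cultures was made into TruSeq Stranded mRNA libraries, per the labels' protocols. The authors deposited 3 tables of TPM, 1 per line with 6 columns each, which add up to 1000000 per column. STAR, DESeq2 and GRCh38 appear in the submitters' processing notes, and their versions and roles are not given in the sources used here. TPM keep no read totals, so the depth per sample is unknown and no counting error could be given. The agent label is identical in the 18 records, so arms were taken from the headings of the authors' columns. In each line the headings give DOX with and without plus, and those without plus were read as vehicle, which is an inference. No column could be assigned to 1 sample title. In COLO 201, 28 entries with names turned into dates were left out. Outdated symbols were replaced by current ones with RefSeq's synonym lists.

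Genes with a mean of at least 1 TPM over the 6 columns of a line were compared on log2(TPM + 1) by limma 3.58.1 (R 4.3.3), which understates the change of low genes, with a variance trend, two-sided, and Benjamini-Hochberg adjustment. The exact permutation p of 3 against 3 columns cannot go below 0.1. Lines were compared in a joint limma fit. Procedures were tested on simulated data, where fewer of the changed genes were recovered in RKO than in H1975. An RKO gene that did not pass may therefore still have changed. All members were named, and of each pathway list at most 4 called genes with the smallest adjusted p were picked per line, together with the 3 genes most like each receptor. HGF and some further genes of the lists were named besides, to show another line or the other direction. The members, lists and tests were chosen with earlier results of these data known. Alternatives tried were a pseudocount of 0.1 or 5, no minimum and a minimum of 5 TPM, median-ratio rescaling, removal of mitochondrial and small noncoding RNA genes, no trend, a replicate block, leaving out each column, and RKO without vehicle column 1 and rescaled. Genes that overlap members were EGFR-AS1, PGAP3, MIEN1 and AL034417.4 on the other strand and MIR4728, AC034102.2 and TGFA-IT1 on the same strand. The strand setting of the counting is not given in the sources used here, so reads of such pairs may be mixed.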

Additional observations from a re-analysis of the deposited data

Results flagged for a closer look

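The change with doxycycline differed between lines, in a limma test of the difference itself, for the following genes. In the fit of all 3 lines HBEGF differed by -2.00 (COLO 201 minus RKO) and by 1.90 (H1975 minus COLO 201), and EGFR by 1.12 (H1975 minus RKO), a value that was 0.44 without RKO vehicle column 1 and 0.16 without it and rescaled. In the fit of H1975 and COLO 201 alone, as H1975 minus COLO 201, the differences were 1.90 for HBEGF, 0.85 for TGFA, 0.81 for AREG, 0.57 for EREG, 0.56 for EGFR, 0.52 for ERRFI1, 0.41 for MET and -0.44 for BTC. That fit was chosen after seeing the data.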

How the results depend on the processing

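Of the values of single members within a line under the alternatives, 306 kept their direction and their side of the threshold, 26 lost and 20 gained a call and 13 changed sign. The COLO 201 falls of EGFR, ERBB2, AREG, EREG, TGFA, HBEGF and ERRFI1 and the H1975 changes of MET, AREG, HBEGF and BTC passed in every alternative run for them. RKO members called higher and lower (0 and 2) became 1 and 2 with a pseudocount of 0.1, 3 and 0 after rescaling or without mitochondrial and small noncoding RNA genes, and 3 and 1 without vehicle column 1 and rescaled. The lower count was 0 with a pseudocount of 5 or no minimum, and 1 without the trend. All RKO genes called higher (220) and lower (1695) became 12 and 16 with no minimum; the higher count was 1453 after rescaling and 1276 without mitochondrial and small noncoding RNA genes, and the counts were 2995 and 3060 without vehicle column 1 and rescaled. In COLO 201, 5312 and 1740 became 3153 and 3435 after rescaling. Members differing (1 for each pair) became, for COLO 201 minus RKO, H1975 minus RKO and H1975 minus COLO 201, 4, 3 and 2 after rescaling, 5, 5 and 4 without mitochondrial and small noncoding RNA genes, and 6, 4 and 4 without RKO vehicle column 1 and rescaled. The last pair had 8 in the fit of COLO 201 and H1975 only. The last 2 settings were chosen after seeing the data.

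Leaving out single columns gave 0 to 1 members higher and 0 to 2 lower in RKO, 0 to 1 and 7 in COLO 201, and 3 to 6 and 1 to 2 in H1975. Over all genes it gave 101 to 257 higher and 477 to 2302 lower in RKO, 4545 to 5619 and 1400 to 1964 in COLO 201, and 1618 to 3324 and 1259 to 1986 in H1975. Without RKO vehicle column 1 the members that differed were 1, 1 and 3. RKO EGFR and ERRFI1 passed in 5 and 6 of 15 alternatives.

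These values changed sign. After rescaling RKO ERBB2 was 0.0078, COLO 201 ERBB3 -0.11 and COLO 201 MET -0.016, and the differences were -0.14 for ERRFI1 (COLO 201 minus RKO) and -0.24 for MET (H1975 minus RKO). Without mitochondrial and small noncoding RNA genes ERBB3 was -0.041 in COLO 201 and -0.0033 in H1975, and those 2 differences were -0.024 and -0.25. Without RKO vehicle column 1 and rescaled, RKO EGFR was 0.0021, the COLO 201 minus RKO differences were -0.48 for EGFR and -0.62 for ERRFI1, and the H1975 minus RKO ones were -0.21 for MET and -0.010 for ERRFI1. Without RKO vehicle column 1 the COLO 201 minus RKO differences were -0.12 for EGFR, 0.070 for ERBB2 and -0.20 for ERRFI1, and the H1975 minus RKO one was 0.14 for ERBB2. The HBEGF difference of H1975 minus RKO was 0.064 with a pseudocount of 5. Leaving out single columns gave -0.0070 to 0.043 for COLO 201 ERBB3, -0.034 to 0.0065 for COLO 201 BTC and -0.10 to 0.033 for H1975 ERRFI1. The cause was not tested.

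The column numbers gave no consistent pairing: same-number deviations from the arm mean correlated at 0.29, 0.27 and -0.01 in RKO, -0.05, 0.15 and 0.28 in COLO 201 and 0.16, -0.42 and -0.35 in H1975. Doxycycline columns 1 and 2 of RKO, 3 of COLO 201 and 1 of H1975 correlated best with their own number, and the others did not. With 3 columns per arm these values are tied to each other, so they do not decide whether the columns were paired. With the number as a replicate block, RKO members called were 1 higher and 0 lower, COLO 201 members higher were 1, all RKO genes higher were 344, and members differing were 3 for COLO 201 minus RKO and 2 for H1975 minus COLO 201. TPM tables give no depth, so which low members (RKO ligands) could have shown a change is unknown.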
